A study of Mus musculus with 12 samples.

Results

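The genes of mitochondrial ribosomal proteins were examined through 6 stages of B-cell activation in the mouse. The group was taken from the gene-wise count table as the genes whose mouse symbol begins with Mrpl or Mrps followed by a digit, without pseudogenes. This gave 78 of the 27179 genes of the table, with 49 Mrpl and 29 Mrps symbols on 17 chromosomes. The rule used symbols alone and no measured value, but the group was chosen with earlier results of these data known. The symbols do not follow the subunits exactly. By the structure of the mammalian ribosome of mitochondria, 51 of the proteins belong to its large subunit and 26 to its small subunit, and Mrps36 is now known as a component of the α-ketoglutarate dehydrogenase complex. In the naming of ribosomal proteins, 46 are classed by a bacterial counterpart and 32 as specific to mitochondria. The second class includes Mrps18a and Mrps18b, although they are relatives of a bacterial protein.

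Mitochondria keep a ribosome of their own, descended from that of bacteria, in the matrix at the inner membrane. Its RNAs are transcribed from mitochondrial DNA (mtDNA), while all of its proteins are encoded in the nucleus, made by cytosolic ribosomes and imported. It translates only the few mRNAs of mtDNA, which code for core subunits of the respiratory chain and of ATP synthase, so that respiratory complexes are built from the products of both genomes. Resting B cells are small and have a low metabolic rate, and after stimulation they grow before their first division.

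Cells came from the spleens of male C57BL/6 mice (Pep3b background) of 6 to 12 weeks, with no transgene named for the RNA-Seq samples. All activated cells were purified by negative selection and cultured with 25 µg/ml lipopolysaccharide (LPS), a bacterial cell wall product that activates B cells. The first stage was untreated naive B cells. At 3, 10 and 33 h of LPS, cells that had not divided were sorted by the activation marker CD69 and the highest signal of the division dye CellTrace Violet. On day 4, expanded B cells were taken as CD22+CD138- cells, and plasmablasts were the cells with CD138 that had lost CD22. By the study's methods, the cultures for day 4 were kept at a lower cell density than those of the undivided cells. Comparisons of undivided with day 4 cells therefore differ in culture density as well as in time and division. Naive cells were sorted straight from splenocytes by surface markers that included B220, IgM and IgD, so they differ from all later stages in purification and culture as well as in LPS. Each stage had 2 biological replicates, and how many animals stood behind a replicate is not given in the sources used here.

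The libraries held 23026619 to 60585587 counts (median 37839944.5). The B-cell markers Cd79a, Cd79b, Ms4a1, Pax5 and Cd22 were detected in every stage. The plasmablast markers (Sdc1, Prdm1, Xbp1, Jchain, Irf4 and Tnfrsf17) summed to 16900 and 16400 CPM (counts per 1000000 counts of the library) in the 2 plasmablast libraries and to 2680 CPM or less in any other library. Markers of other blood cells were highest in the naive libraries. The 8 myeloid markers summed to 287 and 130 CPM there and to between 3.52 and 38.5 CPM in the other 10 libraries. The erythroid markers summed to 197 and 146 CPM in the naive libraries and to at most 2.39 CPM later, and the T-cell markers to 67.5 and 71.2 CPM against at most 39.9 CPM. At 3 h, 3 of 8 myeloid, 1 of 6 erythroid and 5 of 8 T-cell markers had no count at all. The part of these markers in any comparison with naive cells was not tested. With only 2 libraries against 2, the smallest two-sided p of an exact permutation test on a single value is 0.333, and tests were therefore taken from edgeR fits across all genes.

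Transcripts of the group were abundant. Over the 12 libraries, the 77 members that passed the filter on low counts had mean levels of 3.85 to 141 RPKM (counts per kilobase of exon and 1000000 counts), with a median of 40.2 RPKM. Mrpl12, part of the flexible stalk of the large subunit, had the highest mean at 141 RPKM. Next came Mrpl52 at 129 RPKM, Mrps21 at 108 RPKM and Mrpl30 at 106 RPKM. Among tested members the lowest means were those of Mrpl23 with 3.85 RPKM, Mrps25 with 4.5 RPKM, Mrps33 with 6.2 RPKM and Mrps36 with 6.51 RPKM. Mrpl36, which encodes a small bacterial-type protein of the large subunit, was at the edge of detection. It had 0 to 13 counts per library, and the 0 in naive replicate 2 allows up to 0.1 CPM. It was not tested, and its levels ranged up to 0.249 RPKM at 33 h. Of the 78 members, 25 overlap another annotated gene. Among those named below these are Mrps6 (with Slc5a3), Mrpl57 (Ska3), Mrpl18 (Tcp1), Mrpl43 (Twnk), Mrpl37 (Cyb5rl), Mrps18a (Rsph9), Mrps18b (Gm16279), Mrps2 (1700007K13Rik), Mrps25 (Nr2c2), Mrps27 (6430562O15Rik), Mrps7 (Gga3 and Mif4gd), Mrpl19 (Gcfc2), Mrps9 (Gm23126), Mrps23 (Cuedc1), Mrpl44 (Wdfy1), Mrpl49 (Syvn1) and Mrps28 with 3 predicted genes. The sources used here do not state a strand setting for the counting, and without one the reads of overlapping genes cannot be told apart.

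The share of all counts that fell in the 78 genes rose after activation and was lower again in plasmablasts. Summed over the members, naive B cells held 2059.8 and 2016.4 CPM. At 3 h the sum was 2517.9 and 2854.9 CPM, and at 10 h it was 4590.6 and 4351.1 CPM. The 33 h libraries held 4239.7 and 4861.0 CPM, expanded B cells 4256.9 and 4106.2 CPM, and plasmablasts 2760.2 and 2754.5 CPM. The 3 h libraries both lay above the naive libraries, and the 10 h libraries above the 3 h libraries. The 33 h libraries overlapped those of 10 h and of expanded B cells, while both expanded libraries were below both 10 h libraries. Both plasmablast libraries lay below all libraries of 10 h, 33 h and expanded B cells, and between the 2 libraries of 3 h. Means were 2038 ± 30.7 CPM in naive cells, 2686 ± 238 CPM at 3 h, 4471 ± 169 CPM at 10 h, 4550 ± 439 CPM at 33 h, 4182 ± 107 CPM in expanded B cells and 2757 ± 4.03 CPM in plasmablasts (SD, n = 2). A share of counts also depends on the other genes of the library, so libraries were also scaled by their total alone. From expanded B cells to plasmablasts the median log2 fold change was then -0.593 for members and -0.384 for all tested genes. From 3 h to 10 h these medians were 0.847 and 0.348, and from naive cells to 10 h 1.105 and 0.14. In these bulk samples, a different mixture of cells and a different amount of RNA per cell cannot be told apart.

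Other components of the translation and respiratory machinery were set beside the members, and their courses differed from the members' in whole or in part. Counts of cytosolic ribosomal protein genes made up 2.71% to 3.83% of every library, where naive cells had 3.66% and 3.57%, the 3 h libraries 2.78% and 2.71%, and the 10 h libraries 3.67% and 3.63%. For every 100 counts in cytosolic ribosomal protein genes, members therefore had 5.63 and 5.64 counts in the naive libraries, 9.06 and 10.5 in those of 3 h, and 12.5 and 12.0 in those of 10 h. Plasmablasts had 8.95 and 8.6. All libraries after LPS were above both naive libraries on this ratio. The mRNAs encoded in mtDNA took 10.1% and 11.3% of the counts of naive libraries, 5.51% and 8.15% of those of 3 h, 5.59% and 6.31% of those of 10 h, and 4.74% to 6.59% in the 6 later libraries. Nuclear genes of the respiratory chain and ATP synthase took 0.678% and 0.673% of naive libraries, 0.644% and 0.68% of 3 h libraries, and 1.2% and 1.13% of 10 h libraries. The 3 h libraries overlapped the naive libraries for these genes, which was not so for the members.

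**Figure D1:**
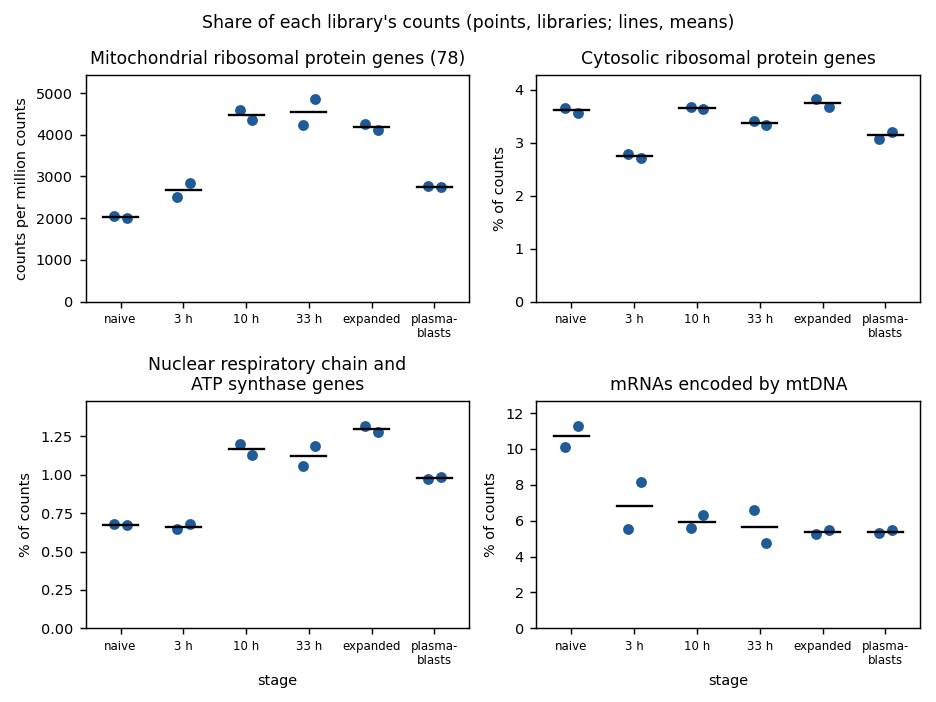
Share of each library's counts held by 4 gene groups at each stage (x axis). The y axes give CPM for the 78 mitochondrial ribosomal protein genes and percent of counts for the others, points are libraries and lines are means of 2. The members' sum lies between 2016.4 and 2059.8 CPM in naive cells and between 4351.1 and 4590.6 CPM at 10 h, while mRNAs encoded in mtDNA are highest in the naive libraries.

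Between naive cells and 10 h, nearly the whole group rose. Genes were called where the fold change was significantly above 1.5 (edgeR glmTreat, adjusted p under 0.05 over all genes tested), and 52 of 77 members were called up and 0 down. Among all tested genes, 19.5% were called up and 19.9% down. By the quasi-likelihood F-test, which asks for a change of any size, 74 members were up and 0 down, beside 35% up and 32.7% down for all tested genes. The median log2 fold change of the members was 0.98, against 0.02 for all tested genes. Both 10 h libraries were above both naive libraries for 76 of 77 members, as they were for 43.8% of all tested genes. Of tested large-subunit members, 34 of 50 were called up with a median log2 fold change of 1.02, and of small-subunit members 17 of 26 with a median of 0.92. Of members with a bacterial counterpart 32 of 45 were called (median 1.0), and of those specific to mitochondria 20 of 32 (median 0.975). Differences between these classes were not tested. The naive libraries of this comparison are those with the myeloid, erythroid and T-cell markers given above.

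The largest rise to 10 h was that of Mrps6 (chr16:92058336-92112227, coordinates of the annotation in GRCm38), a small-subunit protein of bacterial origin. Its levels were 8.07 and 6.51 RPKM in naive cells and 32.7 and 31.9 RPKM at 10 h, a log2 fold change of 2.14 (SE 0.17, glmTreat adjusted p = 1.2e-06). Mrps28 (chr3:8802146-8923857), also of the small subunit, went from 16.6 and 18.5 RPKM to 76.6 and 68.2 RPKM, with a log2 fold change of 2.05 (SE 0.12, adjusted p = 1e-07). Mrps10 (chr17:47368887-47381418) had 6.63 and 8.27 RPKM in naive cells and 28.7 and 26.3 RPKM at 10 h (log2 fold change 1.89, SE 0.19, adjusted p = 1.9e-05). Mrps18b (chr17:35910380-35916440) had 11.2 and 10.9 RPKM and then 37.8 and 40.8 RPKM (log2 fold change 1.83, SE 0.12, adjusted p = 3.5e-07). In all 4 genes both 10 h libraries were far above both naive libraries. Mrpl12 (chr11:120484637-120488754) of the stalk rose from 56.6 and 54.7 RPKM to 188 and 171 RPKM, a log2 fold change of 1.69 (SE 0.10, adjusted p = 1.8e-07). Its partner in the stalk, Mrpl10, which anchors it to the ribosome, had 37.4 and 39.3 RPKM in naive cells and 49.5 and 51.1 RPKM at 10 h. That was a log2 fold change of 0.39 (SE 0.09), below the fold threshold (glmTreat adjusted p = 1) but past the F-test (adjusted p = 0.0013).

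The 3 members that did not pass even the F-test between naive cells and 10 h were Mrpl43, Mrps16 and Mrps23. Mrpl43 (chr19:45005014-45006442), a large-subunit protein specific to mitochondria, had 61.7 and 61.2 RPKM in naive cells and 62.5 and 59.0 RPKM at 10 h (log2 fold change -0.02, SE 0.08, F-test adjusted p = 0.87). It held between 53.6 and 66.5 RPKM in all 12 libraries, the narrowest range of stage means among the members (1.18-fold). Mrps23 had 47.7 and 48.5 RPKM in naive cells and 51.1 and 50.4 RPKM at 10 h (log2 fold change 0.08, SE 0.09, adjusted p = 0.46). Mrps16 (chr14:20391222-20393634), of bacterial origin, reached 84.1 and 83.0 RPKM from 76.0 and 76.4 RPKM (log2 fold change 0.13, SE 0.10, adjusted p = 0.26), with a fall in between that is described next.

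**Figure D2:**
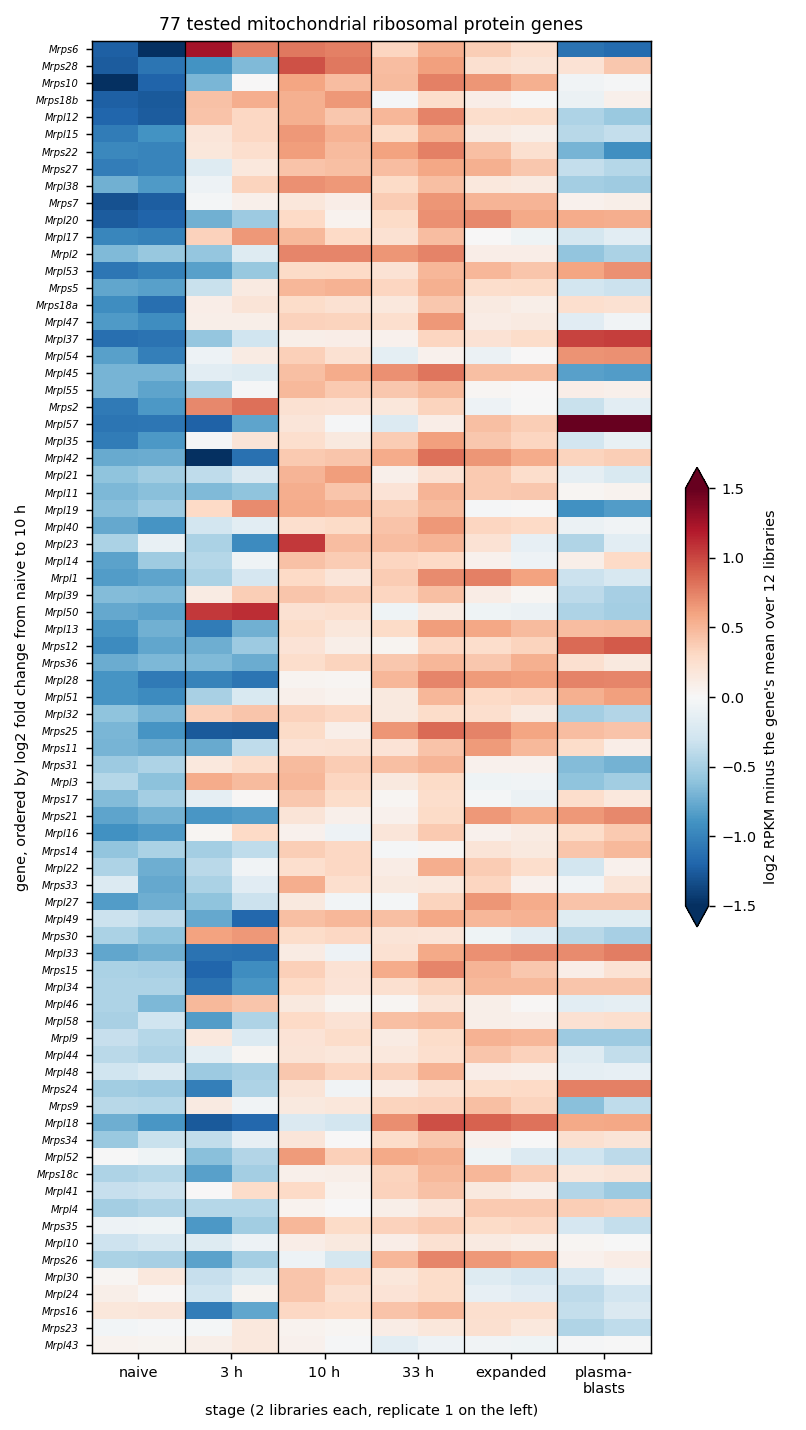
Levels of the 77 tested members (rows, ordered by their log2 fold change from naive cells to 10 h) in the 12 libraries (columns, 2 per stage). Colour gives log2 RPKM minus the mean of the gene over the 12 libraries, from blue (lower) to red (higher). Most rows are blue in the naive libraries and red at 10 and 33 h, Mrpl43 in the last row stays near its mean, and 12 members, among them Mrpl57 and Mrpl37, are highest in plasmablasts.

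The group did not rise at one speed. Within the first 3 h, 23 members were called up and 1 was called down, beside 21% up and 24.3% down among all tested genes. The median log2 fold change was 0.38 for the members and -0.03 for all tested genes. Of the 52 members called up between naive cells and 10 h, 28 had gained at least 50% of their log2 rise by 3 h and 16 a smaller part of it. The other 8 were below their naive level at 3 h. This split was made for the members alone, so it has no share of all tested genes beside it. It rests on TMM scaling, and scaling by library total alone moved the median of all tested genes by -0.209 from naive cells to 3 h. The 3 h libraries were not alike, with a median log2 ratio of replicate 1 to replicate 2 of -0.185 over the members. Their median log2 fold change from naive cells was 0.47 without replicate 1 and 0.21 without replicate 2, with 21 to 26 members called up over all fits that left out 1 library.

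Early risers included Mrps6, which had 44.8 and 32.1 RPKM at 3 h (log2 fold change from naive cells 2.38, SE 0.17, glmTreat adjusted p = 2.7e-07). Mrpl50 (chr4:49512597-49521083), a large-subunit protein specific to mitochondria, went from 11.6 and 11.3 RPKM to 41.4 and 42.5 RPKM, a log2 fold change of 1.87 (SE 0.10, adjusted p = 2.2e-08). Mrps18b reached 35.3 and 37.9 RPKM (log2 fold change 1.73, SE 0.12, adjusted p = 6.1e-07). Mrps2 (chr2:28465951-28471177), of the small subunit, went from 13.5 and 15.5 RPKM to 46.1 and 49.6 RPKM (log2 fold change 1.73, SE 0.11, adjusted p = 1.8e-07). Mrpl12 had 174 and 160 RPKM at 3 h, a log2 fold change of 1.59 (SE 0.10, adjusted p = 3e-07). For each of these 5 genes both 3 h libraries were well above both naive libraries. Mrps16 alone was called down at 3 h. It fell from 76.0 and 76.4 RPKM to 33.0 and 39.3 RPKM, a log2 fold change of -1.07 (SE 0.11, adjusted p = 0.00018), and both 3 h libraries were below both naive libraries.

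From 3 h to 10 h, 24 members were called up and 1 down, beside 17.4% and 13.4% of all tested genes, and the median log2 fold change was 0.52 (0.02 for all tested genes). This comparison and the one before it share the 3 h libraries, so that an error in these would enter both with opposite signs. Mrpl42 (chr10:95480805-95501949), specific to mitochondria, had 53.5 and 53.7 RPKM in naive cells, 32.0 and 41.5 RPKM at 3 h and 119 and 120 RPKM at 10 h. Its rise from 3 h to 10 h was a log2 fold change of 1.69 (SE 0.13, adjusted p = 2.6e-06), and all 3 pairs of libraries were apart. Mrps28 had 21.2 and 24.9 RPKM at 3 h and rose by a log2 fold change of 1.64 (SE 0.12, adjusted p = 3e-06). Mrpl23 (chr7:142532467-142540747), whose protein lies at the exit of the nascent peptide tunnel, was among the lowest members. It had 2.59 and 1.86 RPKM at 3 h and 7.5 and 4.95 RPKM at 10 h (log2 fold change 1.53, SE 0.28, adjusted p = 0.0039), a call lost with DESeq2's Wald test (1.442). Mrps25 (chr6:92169512-92184023) had 1.67 and 1.65 RPKM and then 4.86 and 4.23 RPKM (log2 fold change 1.46, SE 0.12, adjusted p = 1.4e-05). Mrps16 returned from its 3 h level with a log2 fold change of 1.20 (SE 0.10, adjusted p = 4.9e-05).

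The member called down after 3 h was Mrpl50, which had 23.2 and 23.5 RPKM at 10 h, a log2 fold change of -0.85 (SE 0.09, adjusted p = 0.0067). Its highest stage was thus 3 h, as for 9 members in all, and both 10 h libraries remained above both naive libraries. With libraries scaled by their total alone, this call was lost (log2 fold change -0.515) and 42 members were called up from 3 h to 10 h. That scaling moved the median of all tested genes to 0.348 in this comparison, and the members lay 0.498 above it, against 0.503 with TMM scaling.

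**Figure D3:**
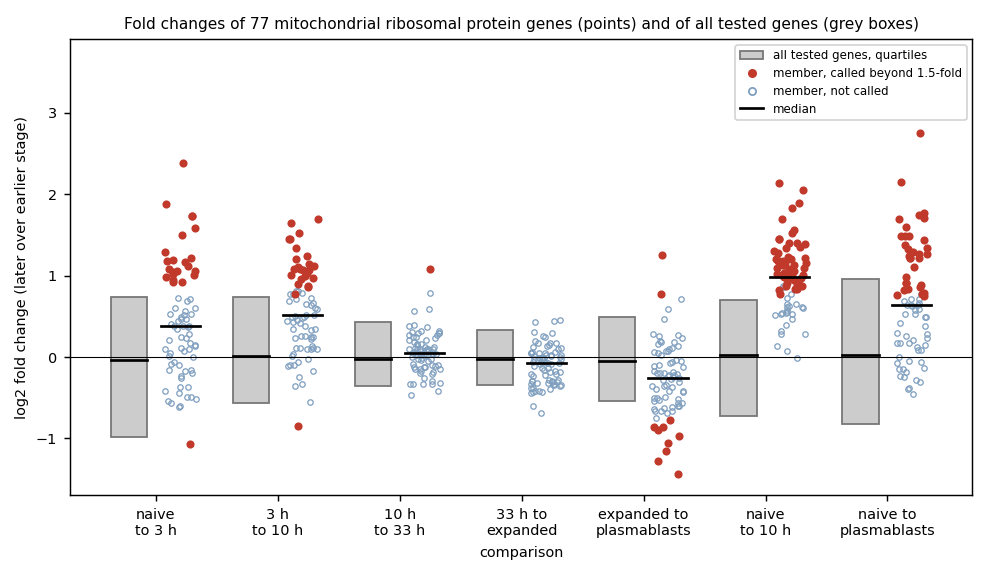
Log2 fold changes of the 77 tested members (points, 1 per gene) in the 7 comparisons on the x axis, later over earlier stage. Filled points are members called beyond 1.5-fold, grey boxes span the quartiles of all tested genes, and black lines are medians. The members' median stands at 0.98 from naive cells to 10 h and at -0.25 from expanded B cells to plasmablasts, against 0.02 and -0.05 for all tested genes.

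Later changes before plasmablasts were small. From 10 h to 33 h, 1 member was called up and 0 down, beside 10.1% and 4.45% of all tested genes. By the F-test 10 members were up and 5 down (23.2% and 22.2% of all tested genes), with a median log2 fold change of 0.05. The member called was Mrpl18 (chr17:12911345-12917787), which binds ribosomal RNA in the large subunit. Its levels were 52.8 and 47.7 RPKM in naive cells, 36.6 and 38.7 RPKM at 3 h, 75.3 and 72.5 RPKM at 10 h and 142 and 171 RPKM at 33 h. The last step was a log2 fold change of 1.08 (SE 0.10, adjusted p = 0.00037), with both 33 h libraries above both 10 h libraries. Mrpl18 stayed at 161 and 154 RPKM in expanded B cells and at 130 and 131 RPKM in plasmablasts. From 33 h to expanded B cells 0 members were called in either direction, while 6.94% of all tested genes were called up and 3.66% down. The F-test had 5 members up and 21 down here (18.5% and 21.2% of all tested genes). DESeq2's Wald test against the same 1.5-fold threshold also called 0, and at an unadjusted p under 0.05 glmTreat had 0 and the F-test 6 up and 24 down. The median log2 fold change was -0.07. The 33 h libraries differed too, with a median log2 ratio of replicate 1 to replicate 2 of -0.173. Without replicate 2 at 33 h the medians of both comparisons changed sign, to -0.031 from 10 h and to 0.002 on to expanded B cells.

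Between expanded B cells and plasmablasts, which were sorted from day 4 cultures, more members fell than rose. glmTreat called 9 members down (11.7%) and 2 up (2.6%), beside 12.2% down and 13.9% up among all tested genes. By these calls the share of members that fell was near that of all tested genes, and the share that rose was smaller. The F-test had 35 members down and 6 up (29.7% and 27.2% of all tested genes). The median log2 fold change was -0.25 for the members and -0.05 for all tested genes. Mrps6 fell from 24.4 and 22.5 RPKM to 8.8 and 8.5 RPKM, a log2 fold change of -1.44 (SE 0.17, adjusted p = 0.00021). Mrpl45 (chr11:97314923-97329920), which helps to hold the ribosome at the inner membrane, had 44.5 and 44.7 RPKM in expanded B cells and 18.5 and 18.2 RPKM in plasmablasts (log2 fold change -1.281, SE 0.08, adjusted p = 3e-06). Both plasmablast libraries were below both naive libraries for Mrpl45, at 20.1 RPKM each. Mrps22 (chr9:98588730-98601679) fell from 36.7 and 31.5 RPKM to 16.5 and 14.2 RPKM (log2 fold change -1.15, SE 0.12, adjusted p = 0.00026). Mrpl9 (chr3:94443154-94448708) fell from 74.2 and 73.1 RPKM to 35.5 RPKM in both libraries (log2 fold change -1.05, SE 0.11, adjusted p = 0.00068). Mrpl1, Mrps9, Mrpl19, Mrps27 and Mrpl12 were also called down, with log2 fold changes of -0.97 to -0.78. The call of Mrpl12 (155 and 157 RPKM against 93.7 and 88.3 RPKM, adjusted p = 0.038) was lost when any library of these stages was left out and with DESeq2's size factors. The number called down fell to 5 without expanded replicate 1 and to 4 without plasmablast replicate 1.

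Mrpl57 (chr14:57826228-57829087), a small protein specific to mitochondria, went the other way. It had 24.8 and 23.4 RPKM in expanded B cells and 56.9 and 57.6 RPKM in plasmablasts (log2 fold change 1.25, SE 0.14, adjusted p = 0.00023). Mrpl37 (chr4:107055874-107066866) had 69.0 and 71.7 RPKM and then 120 and 122 RPKM, a log2 fold change of 0.78 (SE 0.11, adjusted p = 0.046). Both plasmablast libraries were above both expanded libraries in each gene. The call of Mrpl37 was lost with libraries scaled by total alone, without a filter on low counts, with DESeq2's Wald test and when any library of naive cells, 10 h, expanded B cells or plasmablasts was left out, at log2 fold changes of 0.441 to 0.823. Under scaling by library total alone, 29 members were called down and 1 up, and the median of all tested genes was itself -0.384, with that of the members 0.209 below it.

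Against naive cells, plasmablasts still expressed much of the group at a higher level. glmTreat called 33 members up and 0 down, beside 26.6% and 23.4% of all tested genes, and the median log2 fold change was 0.64 (0.02 for all tested genes). Both plasmablast libraries were above both naive libraries in 60 members and below both in 12, beside 45.7% and 43.6% of all tested genes. Mrpl57 rose most, from 8.49 and 8.57 RPKM in naive cells to its plasmablast level above, a log2 fold change of 2.75 (SE 0.14, adjusted p = 5.8e-09). Mrpl37 had 27.2 and 27.5 RPKM in naive cells (log2 fold change 2.14, SE 0.11, adjusted p = 8.2e-09). Mrpl20 (chr4:155802878-155808831), a core protein of the large subunit, had 39.2 and 40.8 RPKM in naive cells and 137 and 136 RPKM in plasmablasts (log2 fold change 1.77, SE 0.14, adjusted p = 7.4e-07). Mrps12 (chr7:28739641-28741821), at the decoding centre of the small subunit, went from 24.0 and 26.9 RPKM to 83.8 and 87.4 RPKM (log2 fold change 1.75, SE 0.12, adjusted p = 3e-07). In these 4 genes the libraries of the stages did not overlap. The marker sums of the naive libraries given above apply here too.

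**Figure D4:**
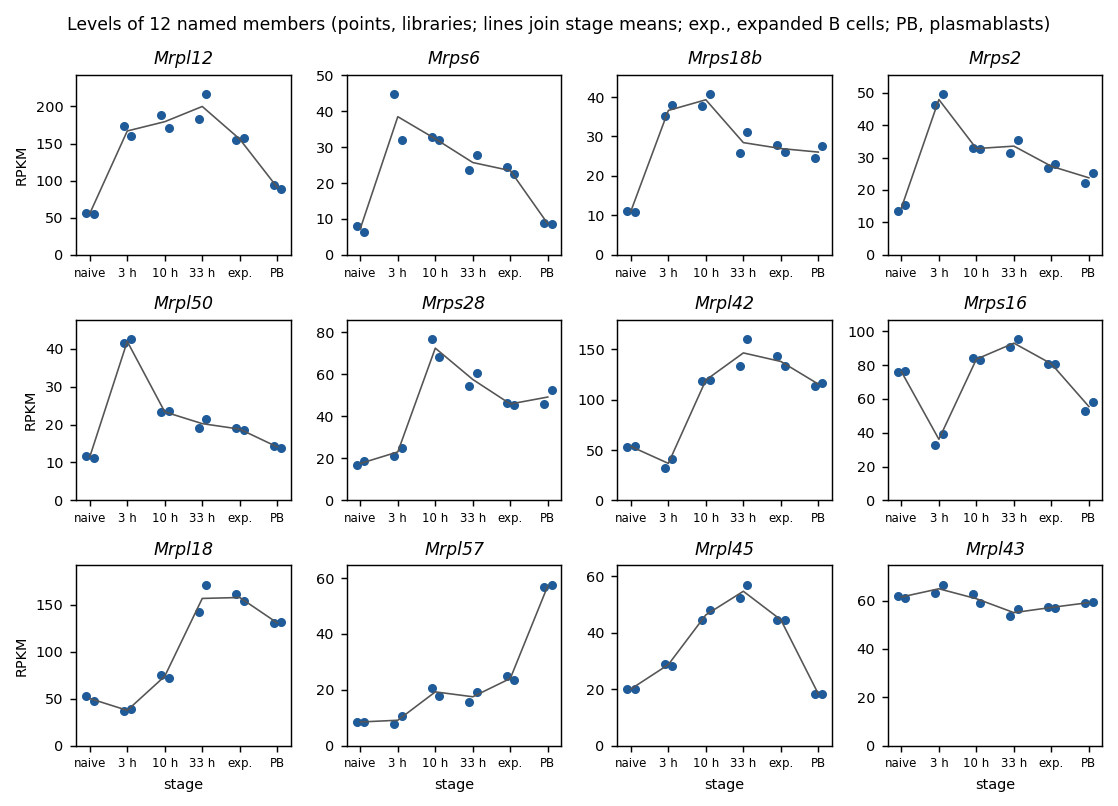
RPKM (y axes, from 0) of 12 members by stage (x axes), with a point per library and lines through stage means. Mrpl12, Mrps6, Mrps18b, Mrps2 and Mrpl50 are raised at 3 h, Mrps28 and Mrpl42 at 10 h, and Mrpl18 at 33 h, while Mrps16 dips to 33.0 and 39.3 RPKM at 3 h, Mrpl57 peaks at 56.9 and 57.6 RPKM in plasmablasts and Mrpl43 stays between 53.6 and 66.5 RPKM.

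Over all stages, 47 of the 77 tested members had their lowest mean in naive cells and 20 at 3 h. The highest mean was at 33 h for 25 members, at 10 h for 17, in expanded B cells for 14, in plasmablasts for 12, at 3 h for 9 and in naive cells for 0. The highest stage exceeded the lowest by a median of 2.57-fold and by up to 6.71-fold. The highest and lowest stages were not counted over all tested genes, so these numbers describe the members without a background share.

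Members with special roles followed these courses to different degrees. The small protein family that descends from 1 bacterial protein has 3 mammalian copies in different places of the ribosome. Mrps18a, in the large subunit, had 24.5 and 21.5 RPKM in naive cells, 50.3 and 53.6 RPKM at 3 h and 56.6 and 55.1 RPKM at 10 h (log2 fold change to 10 h 1.278, SE 0.11, adjusted p = 1.6e-05). Mrps18b was already given above as an early riser. Mrps18c had 36.2 and 37.1 RPKM in naive cells, 28.3 and 35.1 RPKM at 3 h and 52.7 and 53.2 RPKM at 10 h, with a log2 fold change of 0.53 (SE 0.12) to 10 h that did not pass glmTreat (adjusted p = 0.67). Of the 3 copies, Mrps18c had both 3 h libraries below both naive libraries, and Mrps18a and Mrps18b had them above. The difference between the copies was not tested.

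Mrps30, a large-subunit protein despite its symbol, peaked at 3 h with 83.7 and 86.3 RPKM, from 39.6 and 36.3 RPKM in naive cells (log2 fold change 1.16, SE 0.08, adjusted p = 5.8e-06). Mrps7, of bacterial origin, had 38.8 and 40.8 RPKM in naive cells, 93.6 and 101 RPKM at 3 h and 136 RPKM in both expanded libraries, and was called from naive cells to 3 h (log2 fold change 1.29, SE 0.10, adjusted p = 4.3e-06). Mrpl58, which can release stalled peptides, had 40.4 and 46.0 RPKM in naive cells, 31.7 and 41.1 RPKM at 3 h and 69.9 and 66.0 RPKM at 10 h. The naive and 3 h libraries of Mrpl58 overlapped, and its rise from 3 h to 10 h (log2 fold change 0.89, SE 0.12, adjusted p = 0.011) was lost without 3 h replicate 1 or 10 h replicate 1 (log2 fold changes 0.728 and 0.852), with DESeq2's Wald test (0.816) and with only the 4 libraries compared (0.891). Mrpl44, with a fold like that of RNA-cutting enzymes, had 23.0 and 22.1 RPKM in naive cells and 35 and 34.4 RPKM at 10 h and was not called (log2 fold change 0.62, SE 0.10, adjusted p = 0.31). Mrpl41 was not called either, with 9.24 and 9.38 RPKM and then 14.5 and 12.2 RPKM (log2 fold change 0.52, SE 0.12, adjusted p = 0.69). Mrps36, the α-ketoglutarate dehydrogenase component, had 3.67 and 3.84 RPKM in naive cells, 3.89 and 3.67 RPKM at 3 h and 7.37 and 7.75 RPKM at 10 h. Its naive and 3 h libraries overlapped, and it rose with a log2 fold change of 1.01 from naive cells to 10 h (SE 0.16, adjusted p = 0.008), a call lost with DESeq2's Wald test (0.924).

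Genes that work beside the ribosome were taken as lists by function, and their calls from naive cells to 10 h were read against the same 19.5% up and 19.9% down of all tested genes. Mitoribosomal proteins that bear other symbols were called up in 5 of 5 cases (median log2 fold change 1.13), among them Chchd1 (1.49) and Ptcd3 (1.33). Assembly factors were called up in 11 of 27 and down in 0 (median 0.63), with the largest rises in C1qbp, a matrix chaperone-like protein (2.22, SE 0.10, adjusted p = 1.1e-08), and Mrm3, which methylates the large ribosomal RNA (1.69, SE 0.13, adjusted p = 2.5e-06). Translation factors were up in 10 of 21 and down in 0 (median 0.76), led by the elongation factor Tsfm (1.51) and the RNA-binding protein Slirp (1.43). tRNA synthetases of mitochondria were up in 5 of 17 and down in 0 (median 0.47), led by Yars2 (1.44) and Aars2 (1.21). Factors of mtDNA upkeep and transcription were up in 7 of 20 and down in 0 (median 0.59), led by the topoisomerase Top1mt (2.03) and the helicase Twnk (1.60).

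Nuclear genes of the respiratory chain and ATP synthase were called up in 31 of 72 and down in 2 (median 0.67), with Ndufab1 up by 1.83 and Cox7a2l down at -1.97. Cytosolic ribosomal protein genes were up in 5 of 78 and down in 4, with a median of -0.08, and the largest rises were those of Rps27l (2.51), a stress-related relative of a ribosomal protein, and Rpl27 (1.37). From expanded B cells to plasmablasts, where 13.9% of all tested genes were called up and 12.2% down, translation factors were called down in 4 of 21 and up in 0 (median -0.60), with Tufm at -1.05 (SE 0.11, adjusted p = 0.00064) and Lrpprc at -1.05 (SE 0.11, adjusted p = 0.00066). Respiratory chain genes were up in 4 of 72 and down in 0 there, led by Uqcrq (0.99) and Sdhc (0.96). Assembly factors were called up in 1 of 27 (Mettl15, 1.95) and down in 2 (7.41%), among them C1qbp (-1.13). Factors of mtDNA were down in 3 of 20 (15%) and up in 0, among them Mterf2 (-1.65) and Elac2 (-1.18). Synthetases were down in 1 of 17 (5.88%), which was Wars2 (-1.04), and up in 0. The shares down were thus below the 12.2% of all tested genes for assembly factors and synthetases, and near it for mtDNA factors. Comparing naive cells with plasmablasts, where 26.6% of all tested genes were called up and 23.4% down, respiratory chain genes were called up in 49 of 72 (median 0.998), translation factors in 2 of 21 (median 0.01) and assembly factors in 3 of 27 (median 0.17), while 33 of 77 members were (median 0.64). These differences between lists were not tested.

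**Figure D5:**
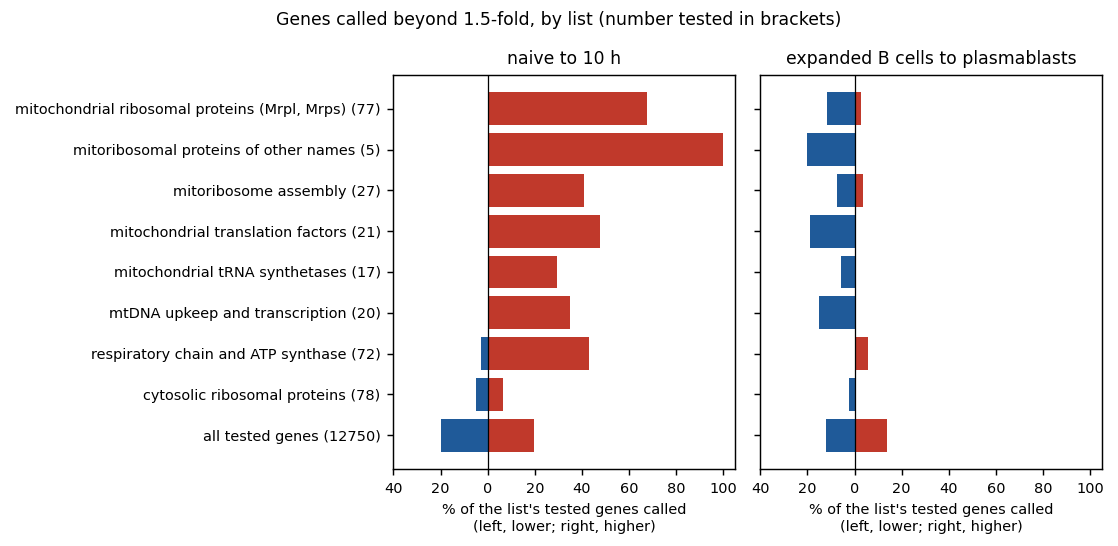
Percent of the tested genes of each list (rows, number tested in brackets) called beyond 1.5-fold from naive cells to 10 h (left panel) and from expanded B cells to plasmablasts (right panel). Bars to the right are genes called higher in the later stage, bars to the left genes called lower. The members have 52 of 77 genes called up and 0 down in the left panel, and 2 up and 9 down in the right panel.

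The 13 mRNAs that this ribosome translates went the other way in share of the RNA. As the study removed mitochondrial genes, they were fitted with these genes kept in (13854 genes tested). From naive cells to 10 h, 9 of 13 were called down and 0 up, beside 19.3% of all genes called down in this fit, and the median log2 fold change was -1.03. COX1, the catalytic subunit of cytochrome c oxidase, had 29200 and 32900 RPKM in naive cells and 13800 and 16300 RPKM at 10 h (log2 fold change -1.02, SE 0.17, adjusted p = 0.0077). ND5 of complex I had 6270 and 7320 RPKM and then 2210 and 2710 RPKM (log2 fold change -1.44, SE 0.22, adjusted p = 0.0012). ND6 had 3570 and 4300 RPKM and then 1450 and 1590 RPKM (log2 fold change -1.35, SE 0.20, adjusted p = 0.0012). Both 10 h libraries were below both naive libraries in these 3 genes. Without 10 h replicate 1 only 4 of 13 were called.

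Of 12 regulators tied to growth and mitochondrial biogenesis, 11 were tested, and from naive cells to 3 h 7 were called up and 1 down, beside the 21% and 24.3% of all tested genes. The one called down was the coactivator gene Ppargc1a, with 0.314 and 0.316 RPKM in naive cells and 0.0601 and 0.0152 RPKM at 3 h (log2 fold change -3.25, SE 0.52, adjusted p = 0.00034). Esrra, a nuclear receptor gene, had 14.4 and 12.9 RPKM and then 11.6 and 10.8 RPKM and was not called (log2 fold change -0.29, SE 0.12, adjusted p = 1). Myc, a driver of growth, had 31.1 and 28.9 RPKM in naive cells, 835 and 706 RPKM at 3 h and 138 and 139 RPKM at 10 h (log2 fold change to 3 h 4.68, SE 0.13, adjusted p = 1.1e-10). Pprc1, a coactivator for nuclear respiratory factors, had 17.3 and 14.8 RPKM, then 72.4 and 79.4 RPKM and then 39.0 and 42.7 RPKM (log2 fold change to 3 h 2.24, SE 0.10, adjusted p = 4.3e-09). Nrf1 went from 12.2 and 11.4 RPKM to 24.3 and 20.6 RPKM at 3 h (log2 fold change 0.93, SE 0.11, adjusted p = 0.0033). Gabpa, the DNA-binding subunit of GABP, went from 14.3 and 16.3 RPKM to 36.4 and 31.8 RPKM (log2 fold change 1.16, SE 0.10, adjusted p = 2.7e-05). For Myc, Pprc1, Nrf1 and Gabpa the naive and 3 h libraries were apart, and at 10 h the levels were lower than at 3 h in both libraries. Yy1 had 90.5 and 82.7 RPKM in naive cells and 149 and 130 RPKM at 3 h and did not pass glmTreat (log2 fold change 0.69, SE 0.09, adjusted p = 0.081).

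Because many members rose together, their promoters were searched for short motifs of such factors. RefSeq promoters (build GRCm38.p6, 250 bases before to 50 after the start) were given for 69 of the 78 members. Each motif was searched on both strands by its letters. The ETS core CCGGAAG, bound by GABP and its relatives, was in 37.7% of the members' promoters (95% Wilson interval 27.2% to 49.5%), in 20.4% of those of all tested genes with a promoter and in 9.93% of all promoters. The YY1 motif AAGATGGCG was in 11.6% (5.99% to 21.2%), 3.48% and 1.64%, in the same order. The NRF1 core GCGCATGC was in 11.6% (5.99% to 21.2%), 5.94% and 3.05%. The E-box CACGTG, bound by Myc among others, was in 7.25% (3.13% to 15.9%), 11.7% and 8.09%. The SP1 box GGGCGG was in 49.3% (37.8% to 60.8%), 67.4% and 38.2%. None of the 5 motifs contains another. In all, 36 of 69 promoters held at least 1 of the NRF1, ETS and YY1 letters and 6 held 2 or more. These combined counts were made for the members alone, so they have no share of other promoters beside them. A match of letters is a description and no evidence of binding, and the interval covers counting error only.

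The following stretches of 120 bases before to 30 after the start show these motifs in capitals in 5 promoters, read 5′ to 3′ along the gene. They were picked after the search to show each of the 3 motifs and its place relative to the start. In Mrpl17 (chr7:105811058-105811207, minus strand) the capitals are the NRF1 core. In Mrps18a (chr17:46110884-46111033, plus strand) they are the ETS core before the start and the YY1 motif after it. Mrps12 (chr7:28741792-28741941, minus strand) and Mrpl57 (chr14:57826119-57826268, plus strand) hold the ETS core at the start. Mrps11 (chr7:78783011-78783160, plus strand) holds the YY1 motif in reverse. Its letters lie at bases -108 to -100 from the start of Mrps11, near the start of the neighbour Mrpl46.
Mrpl17: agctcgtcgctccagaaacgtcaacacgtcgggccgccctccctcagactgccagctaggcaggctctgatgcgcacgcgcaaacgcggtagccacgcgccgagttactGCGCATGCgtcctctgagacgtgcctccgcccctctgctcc
Mrps18a: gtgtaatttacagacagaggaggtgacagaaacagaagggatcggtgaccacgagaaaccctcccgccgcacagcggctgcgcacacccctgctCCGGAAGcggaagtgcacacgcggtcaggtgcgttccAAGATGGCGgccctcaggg
Mrps12: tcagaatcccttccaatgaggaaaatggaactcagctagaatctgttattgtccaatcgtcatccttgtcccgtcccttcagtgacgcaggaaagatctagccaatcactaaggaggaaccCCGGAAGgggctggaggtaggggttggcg
Mrpl57: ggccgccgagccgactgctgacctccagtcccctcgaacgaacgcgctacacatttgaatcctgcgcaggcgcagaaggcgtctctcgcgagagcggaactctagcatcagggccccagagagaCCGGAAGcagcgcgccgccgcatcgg
Mrps11: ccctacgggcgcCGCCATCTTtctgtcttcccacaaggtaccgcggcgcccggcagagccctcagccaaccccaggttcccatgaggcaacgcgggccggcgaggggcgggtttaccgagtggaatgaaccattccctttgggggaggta

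The genes of the promoters shown differed in time course. They are a few picked examples, and members with and without each motif were not compared. Mrpl17 also holds an ETS core at bases -237 to -231, outside the stretch shown. Mrpl17, whose NRF1 core ends 4 bases before the start, went from 6.54 and 6.4 RPKM in naive cells to 16.4 and 20.2 RPKM at 3 h (log2 fold change 1.501, SE 0.12, adjusted p = 2.7e-06) and 18.1 and 15.8 RPKM at 10 h. Mrps12 and Mrpl57, with the ETS core at bases 2 and 5 after the start, were highest in plasmablasts. Mrps11, of the small subunit, and Mrpl46, of the large, start 42 bases apart on opposite strands. Mrps11 had 15.5 and 15.1 RPKM in naive cells, 14.9 and 19.3 RPKM at 3 h and 29.3 and 29.5 RPKM at 10 h. Mrpl46 had 28.8 and 24.9 RPKM, then 55.8 and 52.8 RPKM and then 43.9 and 40.8 RPKM. Mrpl46 was called up at 3 h (log2 fold change 1.01, SE 0.11, adjusted p = 0.0005), where the 3 h libraries of Mrps11 overlapped the naive ones (log2 fold change 0.17, SE 0.14, adjusted p = 1). The difference between the neighbours was not tested.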

How the data were processed

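RNA-Seq counts of 12 libraries were used, 2 for each stage, grouped by the labels. TruSeq libraries of polyA RNA were sequenced on an Illumina NextSeq 500 as 81 bp paired-end reads. According to the study's methods and processing notes, base calls were made with CASAVA 1.8.2, reads were aligned to mm10 (GRCm38) with Rsubread, and the authors deposited raw counts per gene from featureCounts with the inbuilt Entrez annotation, together with exon lengths. The strand setting and the treatment of reads with several matches are not given in the sources used here. Counts in the 12 files of single libraries equalled those of the joint table.

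Entrez IDs were matched to RefSeq symbols (25275 of 27179). IDs without a match, genes of mtDNA, ribosomal RNA, the X and Y chromosomes and variable immunoglobulin segments were removed after the study's methods, which left 23700 genes, and filterByExpr kept 12750. Counts were fitted with edgeR 4.0.16 (limma 3.58.1, R 4.3.3), using TMM, robust quasi-likelihood in its earlier form and 1 layout of all 12 libraries. Stages were compared with glmTreat against 1.5-fold and with the F-test, adjusted by Benjamini-Hochberg over all tested genes at 0.05. SE is the absolute log2 fold change divided by the root of F. RPKM were computed from counts, exon length and TMM-scaled library size, and CPM from total counts. With 2 replicates the precision of a level is that of a pair. The code was tested on simulated counts.

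Members, gene lists, motifs and tests were chosen with earlier results of these data known. Named members are, for each comparison, the 4 with the largest called rise and fall and those called against the majority, the 4 highest and lowest by RPKM, and members set by role, and for related lists the 2 genes with the largest called change. Regulators were set by role, and genes like the members by the rank of r. Mrpl1, Mrpl17, Mrpl19, Mrpl43, Mrpl46, Mrps9, Mrps11, Mrps23, Mrps27, COX1, Ppargc1a, Esrra and the head-to-head neighbours with their members were named after their values were seen. Alternatives were DESeq2 1.42.0 (size factors, Wald test), library size alone, 2 other filters, the newer quasi-likelihood form, no robust mode, a replicate block, removed genes kept in, only the 4 libraries compared, and leaving out each library. Those for mRNAs of mtDNA were added after the data were seen.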

Additional observations from a re-analysis of the deposited data

How the results depend on the processing

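From naive cells to 10 h the number of members called up ranged from 36 (DESeq2's Wald test) to 58 (library size alone). Counts moved by over 1.5 times in the following cases. With library size alone, 42 members were called up and 0 down from 3 h to 10 h, 4 down from naive cells to 3 h, and 29 down and 1 up from expanded B cells to plasmablasts. In this last comparison DESeq2's Wald test called 4 down and 1 up, and the fit with no filter on low counts 1 up. Leaving out 1 library gave 1 to 2 called down from naive cells to 3 h (main value 1, 2 without either 3 h library), 1 to 2 up from 10 h to 33 h (2 without either 3 h library or 33 h replicate 1), and 1 to 2 up and 4 to 10 down from expanded B cells to plasmablasts (4 without plasmablast replicate 1, 5 without expanded replicate 1). For mRNAs of mtDNA from naive cells to 10 h it gave 4 to 10 called down. The causes were not tested. Relative to the counts of the genes kept, the members' sum was 2405.0 CPM in naive cells, 3026.0 CPM at 3 h, 4982.8 CPM at 10 h, 5079.8 CPM at 33 h, 4702.6 CPM in expanded B cells and 3218.0 CPM in plasmablasts, since the removed genes leave the denominator. In the 100 bases around the start, 2.9% of members' promoters held the E-box and 27.5% the SP1 box, as a shorter window holds fewer matches. Library size alone moved the median log2 fold change of all genes by -0.209 (naive to 3 h), 0.331 (3 h to 10 h), -0.338 (expanded to plasmablasts), 0.12 (naive to 10 h) and -0.282 (naive to plasmablasts). No shared effect of replicate number was seen, as same-numbered libraries correlated by -0.14 to 0.08 in their deviations over 15 pairs of stages and 0 were over 0.1. Whether same-numbered libraries shared animals or a day cannot be read from these correlations. With a replicate block, 23, 25, 1, 0, 2, 52 and 33 members were called up in the 7 comparisons, in the order naive to 3 h, 3 h to 10 h, 10 h to 33 h, 33 h to expanded, expanded to plasmablasts, naive to 10 h and naive to plasmablasts. Of the values of single named genes, 890 kept their direction and side of the threshold, 34 kept only their direction and 0 were reversed.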

Other observations

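Members often stand head to head with another gene. Of the 69 members with a RefSeq promoter, 24 (34.8%, 95% Wilson interval 24.6% to 46.6%) had a start within 500 bases of that of a gene on the opposite strand, beside 19.4% of tested genes and 11.9% of all genes with a promoter. Some of these neighbours also serve mitochondria and others do not. Neighbours were not counted by function, here or for other genes, and the pairs below were named after their values were seen. Mrps12 starts 147 bases from Sars2, the mitochondrial seryl-tRNA synthetase, and from naive cells to 10 h their log2 fold changes were 1.01 (SE 0.12, edgeR glmTreat adjusted p = 0.0013) and 0.89 (SE 0.11, adjusted p = 0.0064). Mrpl43 starts 116 bases from Twnk, the helicase of mtDNA, with log2 fold changes of -0.02 (SE 0.08, adjusted p = 1) and 1.60 (SE 0.13, adjusted p = 2.5e-06). Mrpl43 and Twnk overlap, so their reads may not be told apart. Mrpl49 starts 192 bases from Fau, which encodes a cytosolic ribosomal protein, with log2 fold changes of 0.83 (SE 0.12, adjusted p = 0.019) and -0.99 (SE 0.13, adjusted p = 0.0032). Mrpl47 starts 308 bases from Ndufb5 of complex I, with 1.23 (SE 0.13, adjusted p = 0.00011) and 0.09 (SE 0.09, adjusted p = 1). Mrpl32 starts 205 bases from Psma2, a proteasome subunit, with 0.98 (SE 0.10, adjusted p = 0.00066) and 1.05 (SE 0.09, adjusted p = 9.2e-05).

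The members' median course was also set beside every gene with a mean log2 CPM of at least 3, by Pearson's correlation of stage means over the 6 stages, as a description with no test. The 10 genes outside the group that were most like it had r of 0.9973 to 0.991 among 8262 genes. They included Stoml2, a scaffold of the inner membrane (0.9973), Afg3l1, a protease of that membrane (0.9965), and the respiratory chain subunits Cyc1 (0.9949) and Ndufv2 (0.9917). The others were Smyd2, Atp6v1c1, Ddx39a, Tada2a, Rpp30 and Thop1. Of the 74 members ranked, 16 had r of at least 0.9 and 8 were below 0.5. Among all genes ranked, 3.53% had r of at least 0.9. The median r was 0.78 for the members and 0.05 for all genes ranked. The members' own r is in part built in, since the median course was made from them. Mrpl43 had the lowest, at -0.66. All points come from the same 12 libraries, so a fault in 1 library enters every profile.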
